A study of Mus musculus with 4 samples.

Results

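The Dock and Elmo genes examined here are 9 genes: Dock1, Dock2, Dock4, Dock5, Dock8, Dock10, Dock11, Elmo1 and Elmo2. They belong to a family of 17 listed Dock, Elmo and Elmod genes, and all 9 had open-chromatin peaks in both libraries. In all, 25458 genes had at least 1 peak in either library, and the number with peaks in both is not given here. The 9 genes were chosen by name with their peak numbers in these libraries already known. The values below are therefore descriptions and no test was made. A gene's peaks are its promoter and distal peaks in the authors' deposited annotation, and its accessible length is their summed length. Frozen liver of wild type mice was compared with that of Mertk knockout mice, and both groups had undergone bile duct ligation, an operation that blocks bile flow and leads to liver fibrosis. Open chromatin was read with the 10x Genomics Multiome ATAC assay, in which a transposase cuts accessible DNA in isolated nuclei, with 1 library for each genotype. The labels do not give the age or sex of the mice, the time after ligation, the Mertk allele or the number of animals behind a library.

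Dock proteins are guanine nucleotide exchange factors that switch on the small GTPases Rac and Cdc42, and Elmo proteins are scaffolds of some of them. When a phagocyte binds a dying cell through a receptor such as Mertk, a Dock and Elmo complex activates Rac, and actin then pushes the membrane around the cargo. Dock1 is widely expressed and is the classical engulfment member. Dock2 and Dock8 are mostly genes of blood cells, where they serve migration and immune synapses.

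RefSeq promoter sequences of GRCm38.p6, the assembly behind mm10, were matched for 8 of the 9 genes, with 12 start sites in all. Dock5 had no entry. The 250 bases before the start are printed 5′ to 3′ on the gene's strand for 6 of these sites, to show how the sites differ in base composition, with every CpG dinucleotide in capitals. The first pair is Dock1 (chr7:134670437-134670686, plus strand) and Dock2 (chr11:34783906-34784155, minus strand). The next pair is the outer start of Dock10 (chr1:80758554-80758803, minus strand) and its inner start (chr1:80665353-80665602, minus strand). The last pair is the first start of Elmo1 (chr13:20090257-20090506, plus strand) and its later start (chr13:20472740-20472989, plus strand).
Dock1: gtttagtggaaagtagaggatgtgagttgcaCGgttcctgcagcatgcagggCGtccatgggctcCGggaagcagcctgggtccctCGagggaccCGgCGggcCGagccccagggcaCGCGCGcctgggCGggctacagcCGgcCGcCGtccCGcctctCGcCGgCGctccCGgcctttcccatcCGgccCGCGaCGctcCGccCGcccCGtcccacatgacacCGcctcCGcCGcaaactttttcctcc
Dock2: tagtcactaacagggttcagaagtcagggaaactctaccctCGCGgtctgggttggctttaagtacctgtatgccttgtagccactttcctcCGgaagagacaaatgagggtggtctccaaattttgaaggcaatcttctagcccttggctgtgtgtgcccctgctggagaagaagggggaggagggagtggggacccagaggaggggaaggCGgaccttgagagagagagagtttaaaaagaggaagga
Dock10 outer start: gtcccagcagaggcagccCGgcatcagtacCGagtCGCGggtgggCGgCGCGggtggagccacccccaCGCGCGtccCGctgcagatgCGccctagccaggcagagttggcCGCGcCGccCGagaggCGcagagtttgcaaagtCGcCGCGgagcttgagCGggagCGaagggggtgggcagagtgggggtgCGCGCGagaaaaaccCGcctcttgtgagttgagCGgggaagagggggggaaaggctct
Dock10 inner start: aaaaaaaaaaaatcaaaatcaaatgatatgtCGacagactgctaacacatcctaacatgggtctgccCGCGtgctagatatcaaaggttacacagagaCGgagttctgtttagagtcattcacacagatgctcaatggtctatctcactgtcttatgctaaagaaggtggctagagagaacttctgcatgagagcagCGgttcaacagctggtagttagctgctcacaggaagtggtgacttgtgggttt
Elmo1 first start: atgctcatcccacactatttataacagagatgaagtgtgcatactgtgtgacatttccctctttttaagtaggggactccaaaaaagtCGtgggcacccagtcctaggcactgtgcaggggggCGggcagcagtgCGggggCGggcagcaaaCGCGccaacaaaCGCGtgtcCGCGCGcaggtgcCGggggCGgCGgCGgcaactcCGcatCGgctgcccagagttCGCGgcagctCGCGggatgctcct
Elmo1 later start: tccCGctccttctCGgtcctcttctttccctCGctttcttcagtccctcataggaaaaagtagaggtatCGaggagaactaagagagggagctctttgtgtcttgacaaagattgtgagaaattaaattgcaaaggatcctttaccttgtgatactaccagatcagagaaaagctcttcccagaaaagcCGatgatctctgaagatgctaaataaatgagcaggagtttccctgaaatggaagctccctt
The Dock1 sequence holds 29 CpG dinucleotides at 71.6% G+C, the Dock2 sequence 4 at 52.8%. The outer Dock10 start has 27 at 70.4% and the inner start 5 at 43.2%. The first Elmo1 start has 21 at 61.6% and the later start 5 at 43.6%. Over the 300-base windows of all 32851 RefSeq promoters (250 bases before to 50 after the start), the median was 7 CpG and 52.7% G+C, against 22.5 and 61.2% over the 12 member windows. The CpG-poor promoters of Dock2 and of the inner Dock10 start lay under peaks in both libraries, while the later Elmo1 start lay under none in either.

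The libraries differed in depth and in the fragments that fell in peaks. The 5828 wild-type nuclei gave 40858512 ATAC fragments and the 5339 knockout nuclei 83996145, or 2.06 times as many. Of these, 13784605 wild-type and 38628042 knockout fragments lay in peaks, a larger part in the knockout library. The lists hold 72302 and 106319 peaks, or 1.47 times as many. The median of 14692 genes with a mean accessible length of at least 2 kb was 1.31 times as long in the knockout library. Ratios are therefore given on the log2(kb + 1) scale, knockout to wild type, both as they are (uncentred) and after subtracting that median of 0.39 (centred). A centred ratio at or beyond 1 or -1 is counted as higher or lower. This rule concerns size alone. With 1 library per genotype no difference could be set against a spread between replicates. Mertk itself, the deleted gene, had 10 wild-type and 13 knockout peaks, and peak positions cannot check its deletion here.

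Marker genes of the cell types in liver also differed between the libraries. The peak lists used here cover the nuclei of all types in a library, and nuclei were not sorted by type here. From these lists, fewer cells of a type and fewer open regions per cell cannot be told apart. Of 12 hepatocyte markers 10 were higher and 0 lower. Their peaks covered 18.9 kb (wild type) and 87.3 kb (knockout). No wild-type peak was found for 5 of them, while 2 others had less length in the knockout library. Defining markers of liver tissue were thus absent in part from the wild-type list and present in full in the knockout list. Stellate cell and fibroblast markers (6 of 6 measured higher, 6.55 and 52.3 kb), cholangiocyte markers (4 of 6 higher, 13.2 and 45.0 kb) and endothelial markers (1 of 10 higher, 72.2 and 127 kb) had the same direction in summed length. Of the 6 cholangiocyte markers 1 had less length in the knockout library. Over all 14692 genes 10.3% were higher and 4.08% lower, so the endothelial count was near the general share. A gene without wild-type peaks reaches the 2 kb minimum only through the knockout library and is then always higher. At least the hepatocyte and stellate counts were thus partly fixed in advance. Markers of Kupffer cells (2 of 9 lower, 47.7 and 41.3 kb), monocytes and macrophages (4 of 8 lower, 65.9 and 57.3 kb) and T and natural killer cells (1 of 5 lower, 21.2 and 16.7 kb) had less length in the knockout library. Neutrophil markers (1 of 5 lower, 29.5 and 31.5 kb) and B and plasma cell markers (0 of 5 lower, 19.6 and 23.8 kb) had slightly more length there, below the general ratio. The part of these marker differences, and of depth, in the values of the Dock and Elmo genes was not tested.

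Against the general surplus of knockout peaks, the 9 genes together had nearly equal numbers. They had 178 wild-type peaks (148 kb) and 186 knockout peaks (157 kb), ratios of 1.04 in peaks and 1.06 in length. When the knockout list was cut to its 72302 widest peaks, the number in the wild-type list, 107 knockout peaks were left to the 9 genes, a ratio of 0.60. Over all genes 71726 wild-type and 71426 knockout promoter or distal peaks then remained. The cut ranks peaks by width, as no heights are given, and does not equalise depth. The 9 genes fell into 3 patterns. Dock1 had more knockout peaks, beyond the ratio of the median gene. Dock4, Dock8 and Elmo2 lay near the median gene. Dock2, Dock5, Dock10, Dock11 and Elmo1 had fewer peaks and less accessible length in the knockout library even before centring. Less length in the knockout library was thus found for 5 of the 9 genes, against 23.7% of all 14692 genes, and against 19.0% of the 3183 genes with a mean of at least 7 kb, a length that all 9 reach. Fewer peaks were found for the same 5 of 9 against 18.2% of all genes. By the size rule 1 of 9 was lower, Dock10, against 4.08% of all genes (2.14% of those of at least 7 kb), and 0 were higher, against 10.3% (6.44%). The median centred ratio was -0.49 over the 9 genes and 0 by construction over all genes. Since these genes were picked with such values known, nothing particular to them is read from these shares.

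**Figure D1:**
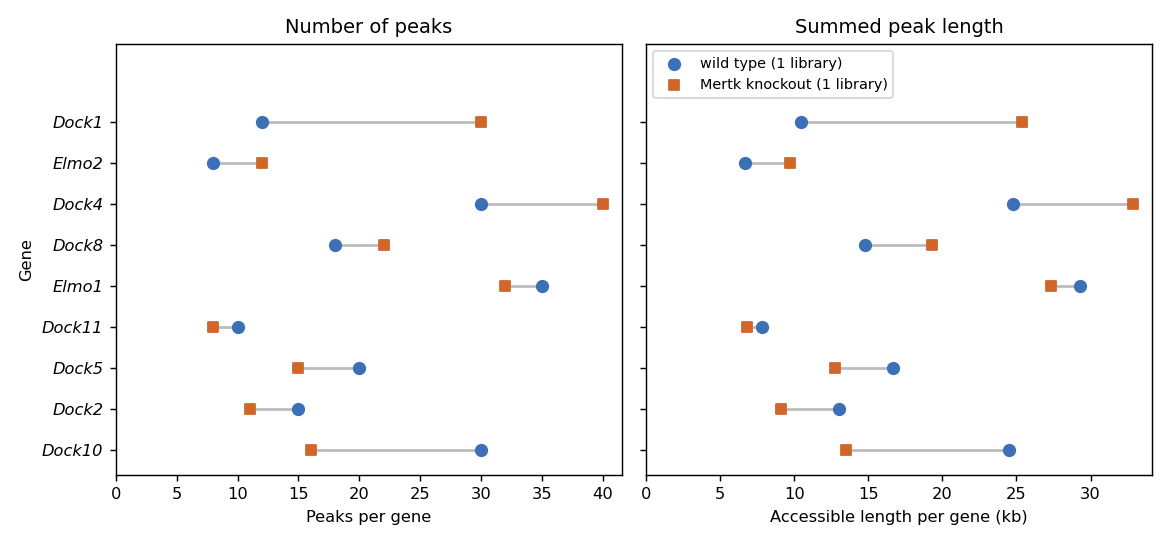
Number of peaks (left) and summed peak length in kb (right) of each Dock and Elmo gene in the wild-type library (circles) and the knockout library (squares), 1 library each, ordered by centred ratio. Dock1 goes from 12 to 30 peaks and Dock10 from 30 to 16, while Elmo1 differs by 3 peaks.

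Dock1 differed in direction from its relatives Dock2 and Dock5. Dock1 (chromosome 7, 134670687 to 135173647) had 12 wild-type peaks covering 10.5 kb and 30 knockout peaks covering 25.4 kb. That was an uncentred log2 ratio of 1.20 and a centred one of 0.81, at percentile 85.1 of all measured genes. The knockout peaks were spread along the gene. In the leading 25% of the gene the wild-type library had 10 peaks and the knockout library 15. In the other 377 kb the wild-type library had 0 peaks and the knockout library 12, none of which overlapped a wild-type peak. All 12 were also assigned to a neighbour, Insyn2a or 1700120G07Rik, in the deposited annotation. Counting peaks assigned to no other gene, Dock1 had 12 and 18, and its centred ratio was 0.10.

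The Dock1 promoter itself was alike in both libraries. Its peak ran from 134670299 to 134671165 in the wild-type and from 134670258 to 134671128 in the knockout library, and each covered all 300 bases around the start. Of the other wild-type Dock1 peaks 8 were shared, including one whose centre lay at -114 kb, upstream of the start. In all, 9 of 12 wild-type peaks overlapped a knockout peak, the second highest share among the 9 genes after Elmo2.

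Dock2, the main Rac activator of lymphocytes and neutrophils (chromosome 11, 34226815 to 34783905), had 15 wild-type peaks (13.0 kb) and 11 knockout peaks (9.10 kb). Its uncentred ratio was -0.47 and its centred ratio -0.87, at percentile 5.93. The promoter peak was in both libraries, at 34783497 to 34784140 and at 34783510 to 34784187. Of 19 regions, counted after merging overlapping peaks of both libraries, 7 were open in both, 8 in the wild type alone and 4 in the knockout alone. For such region counts, here and below, no share over all genes is given. The wild-type regions included the widest peak of all 9 genes, 1305 bp at 34726275 to 34727579, which had no counterpart in the knockout library.

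Dock5, a close relative of Dock1 (chromosome 14, 67751928 to 67933572), had 20 peaks (16.7 kb) and 15 (12.7 kb), with an uncentred ratio of -0.37 and a centred ratio of -0.76. Peaks centred within the gene summed to 6.81 kb (wild type) and 5.06 kb (knockout) per 100 kb of Dock5, against 1.73 and 4.51 kb for the far longer Dock1, so the genes lay further apart in the wild type. At and upstream of its start lay 5 wild-type and 4 knockout peaks, promoter peak included, of which 4 in each library were shared. The leading 25% of the gene held 5 wild-type peaks and 2 knockout peaks. A run of 4 wild-type peaks centred between 13.5 and 34.5 kb into the gene had no knockout counterpart.

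**Figure D2:**
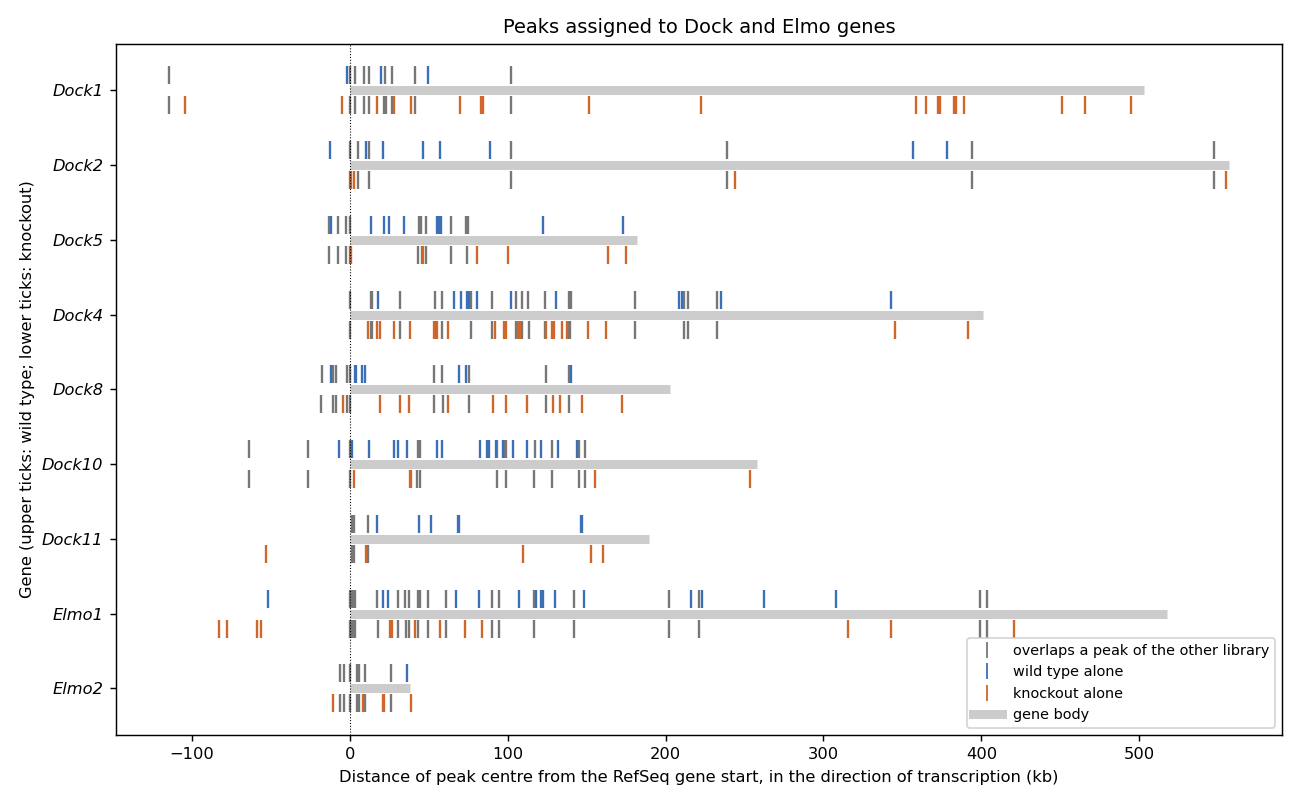
Position of every assigned peak relative to the RefSeq gene start (kb, in the direction of transcription), with wild-type peaks above and knockout peaks below each gene body (bar), grey where a peak overlaps one of the other library. Grey ticks gather near the starts, knockout-only ticks fill the far part of Dock1, and wild-type-only ticks are many between the starts of Dock10.

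Dock4, which acts on Rac and the related GTPase Rap (chromosome 12, 40445957 to 40846874), had the most peaks in the knockout library of the 9 genes. It had 30 wild-type peaks (24.7 kb) and 40 knockout peaks (32.9 kb). Its uncentred ratio was 0.40 and its centred ratio 0.00, the same as the median gene. The first 200 kb after its start held 22 wild-type and 34 knockout peaks, of which 14 in each library were shared. Of 52 merged regions 18 were open in both, 12 in the wild type alone and 22 in the knockout alone. Its promoter peak, at 40445562 to 40446454 and at 40445495 to 40446361, was also assigned to Zfp277, which starts on the other strand. When the knockout list was cut to its 72302 widest peaks, the centred ratio of Dock4 was -0.81.

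Dock8, a Cdc42 activator of leukocytes whose loss causes immunodeficiency (chromosome 19, 24999321 to 25202432), had 18 peaks (14.8 kb) and 22 (19.3 kb). Its uncentred ratio was 0.36 and its centred ratio -0.03, which differ in sign. Of 5 peaks before the start in each library, 4 were shared. In the gene, 4 wild-type peaks centred between 3.05 and 9.60 kb after the start had no knockout counterpart, while 12 knockout peaks, 1 of them before the start, had no wild-type counterpart.

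Dock10, which activates Cdc42 and Rac in lymphocytes (chromosome 1, 80501068 to 80758765), had the greatest difference in the wild-type direction, with 30 wild-type peaks (24.5 kb) and 16 knockout peaks (13.5 kb). Its uncentred ratio was -0.81 and its centred ratio -1.20, at percentile 2.14, so it passed the size rule only after centring. Of 34 regions 11 were open in both, 18 in the wild type alone and 5 in the knockout alone. Both RefSeq starts of Dock10 carried a promoter peak in both libraries. At the outer start it ran from 80758064 to 80758974 and from 80758096 to 80759005, and at the inner start from 80665090 to 80665707 and from 80665094 to 80665686. Another promoter peak beside the inner start, 329 bp wide at 80665811 to 80666139, was called in the wild-type library alone. More of the difference lay between the starts than after them. In those 93.2 kb the wild-type library had 15 peaks and the knockout library 7, of which 4 in each were shared. From the inner start to the gene's end there were 12 and 7. The 2 peaks farthest upstream, centred at -26.6 and -63.6 kb in the wild-type library, were shared.

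Dock11, a Cdc42 activator on the X chromosome (35887271 to 36076570), had the fewest shared peaks, with 10 (7.80 kb) and 8 (6.81 kb). Its uncentred ratio was -0.17 and its centred ratio -0.57. Only 3 regions of 15 were open in both, all within 11.6 kb of the start: the promoter (35888265 to 35889126 and 35888306 to 35889154) and the 2 shared peaks after it. All 7 wild-type peaks farther into the gene were absent from the knockout list, and a second promoter peak, at 36039808 to 36040686, was in the knockout list alone.

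Elmo1, the leukocyte-rich scaffold of Dock2 (chromosome 13, 20090507 to 20608353), had the most wild-type peaks of the 9 genes. It had 35 wild-type peaks (29.3 kb) and 32 knockout peaks (27.3 kb). By peak number it ranked 25 (wild type) and 151 (knockout) among all genes. Its uncentred ratio was -0.10 and its centred ratio -0.49. The first 10 kb after its start held 4 peaks in each library, all shared. Within the first 50 kb each library had 13 peaks, of which 11 wild-type and 10 knockout peaks were shared. Upstream they differed, with 1 wild-type and 4 knockout peaks before the start, none of them shared. The annotation's second Elmo1 promoter peak, at 20111029 to 20111873, was in the wild-type list alone, and the later RefSeq start printed above, at 20472990, had no peak in either list.

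Elmo2, the widely expressed scaffold (chromosome 2, 165288031 to 165326479), is the shortest of the 9 genes at 38.4 kb and had the most peak length per gene length. It had 8 peaks (6.70 kb) and 12 (9.70 kb), of which 5 and 7 were centred within the gene. Those summed to 10.6 kb (wild type) and 13.8 kb (knockout) per 100 kb of gene. The uncentred ratio was 0.47 and the centred ratio 0.08, though it was -0.51 when the knockout list was cut to its 72302 widest peaks. Promoter peaks made up 4 of the 8 wild-type and 5 of the 12 knockout peaks. All but 1 wild-type peak were shared. A promoter peak, at 165317733 to 165318561, and 4 distal peaks were in the knockout list alone.

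Promoter peaks of the 9 genes were shared more than their distal peaks. Each library had a promoter peak at 9 of 9 genes, while both libraries had one at 81.4% of the 17563 genes with a promoter peak in either. Those 17563 include genes with little accessible length, while all 9 genes reach a mean of 7 kb, so the sets are unlike. For 3.17% it was in the wild-type list alone and for 15.4% in the knockout list alone. Of the 15 promoter peaks of the 9 genes in each library, 13 were shared (86.7%, exact 95% interval 59.5% to 98.3%). The intervals here and for distal peaks cover counting error only. They take peaks as independent, though peaks of the same gene are not replicates and sharing differed by gene. Over all genes the shared part was 93.5% of wild-type and 78.9% of knockout peaks at promoters.

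Distal peaks were shared less. Of 163 wild-type distal peaks of the 9 genes 83 were shared (50.9%, interval 43.0% to 58.8%), while over all genes 67.1% were, and 69.3% over genes of at least 7 kb. Of 171 knockout distal peaks 81 were shared (47.4%, interval 39.7% to 55.1%), against 43.7% and 48.2%. These shares depend on the length of the knockout list. With that list cut to its 72302 widest peaks, the shared part of all wild-type peaks of the 9 genes went from 53.9% to 31.5%, and over all genes from 72.5% to 51.4%. By gene, the shared part of all wild-type peaks ranged from 30.0% at Dock11 to 87.5% at Elmo2, and of knockout peaks from 33.3% at Dock1 to 68.8% at Dock10. Merging gave 267 regions, of which 93 (34.8%) were open in both, 82 in the wild type alone and 92 in the knockout alone. No share of merged regions over all genes is given here. The 34.8% is on another measure than the shares of peaks above and cannot be set against them. Overlaps were mostly broad, with medians of 801.5 bp (wild type) and 804.5 bp (knockout), about the width of a peak. Under 100 bp of overlap was found for 4 wild-type and 2 knockout peaks. The smallest was 2 bp, at a knockout peak of Dock1 (134692443 to 134692922). Peaks in 1 library alone were as wide as shared ones, with medians of 863 against 858.5 bp in the wild-type and 871.5 against 869 bp in the knockout library.

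**Figure D3:**
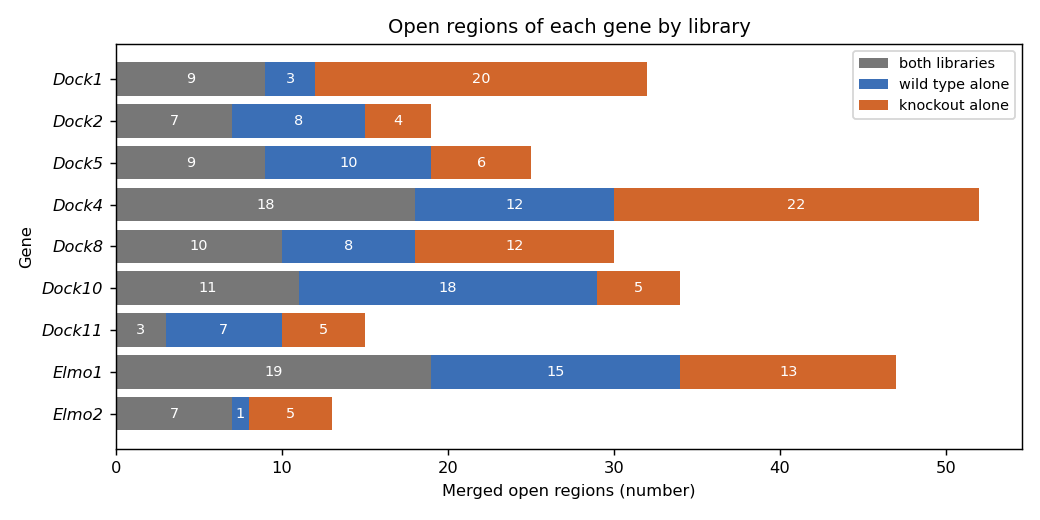
Number of merged open regions of each gene that were found in both libraries (grey), in the wild type alone (blue) and in the knockout alone (orange). Of the 32 Dock1 regions 20 were in the knockout alone, and of the 34 Dock10 regions 18 in the wild type alone. Region counts over all genes are not given for comparison.

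Taken as a set, the peaks of these genes crowded toward the starts, though not at every gene. Of the peaks centred in a gene body, 53.2% of 158 in the wild-type and 49.1% of 161 in the knockout library lay in the leading 25% of the gene. Over 1876 genes of at least 100 kb the shares were 32.9% and 30.8%. These count every peak centred in a gene, whatever gene it is assigned to, while the shares of the 9 genes count assigned peaks only. Elmo2, at 38.4 kb, is also shorter than the genes compared, so the shares are not on the same measure. Elmo1 had 23 of 34 wild-type body peaks there and 20 of 28 in the knockout library. Dock5, with 5 of 15 and 2 of 11, and Dock8, with 5 of 13 and 4 of 17, had smaller shares. The last 25% of all 9 genes held 8 wild-type and 19 knockout peaks, and Dock1 accounted for 6 of the 19.

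The family has 8 more genes. Elmo3, Elmod1 and Elmod2 were below 2 kb and had 1 or 2 peaks in each library. By the size rule 1 of the other 5 was higher and 0 lower, against 10.3% and 4.08% of all genes, with a median centred ratio of 0.40. Elmod3 had 2 and 10 peaks, a centred ratio of 1.35. Dock6, a relative of Dock8 that acts on Rac and Cdc42, had 6 and 17 peaks and 0.97. Dock9, a Cdc42 activator related to Dock10 and Dock11, had 17 and 31 peaks and 0.40. Dock3, known from neurons, had 3 peaks in each library and -0.44. The family thus spanned centred ratios from -1.20 (Dock10) to 1.35 (Elmod3).

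Genes upstream and downstream of Dock and Elmo mostly lay below the median gene, within the size rule. In 4 lists, 61 of 72 genes were measured, 43 below the median gene and 18 above it, with a median centred ratio of -0.21. By the size rule 1 was higher and 0 were lower, against 10.3% and 4.08% of all genes. Among 12 measured engulfment receptors the median was -0.09. The 1 higher gene was Adgrb1, a phosphatidylserine receptor that binds Elmo directly, with 0 wild-type and 8 knockout peaks. Adgrb1 reached the 2 kb minimum through its knockout peaks alone, so its call was fixed in advance. Axl, a relative of Mertk, had 4 and 10 peaks (0.75). Timd4, which binds phosphatidylserine on resident macrophages, had 12 and 9 (-0.75). Among 14 measured adaptors and upstream activators the median was -0.19, and the most distant genes were Git2 with 3 and 2 peaks (-0.81), Vav3, a Rac activator, with 33 and 28 (-0.65), and Arhgef16 with 2 and 5 (0.62).

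Among 14 measured GTPases and their regulators the median was -0.37. Rac2, the blood cell Rac that Dock2 activates, had 3 and 2 peaks (-0.86), Rap1b 6 and 4 (-0.99) and Rap1a 3 and 9 (0.75). Among 21 measured genes of the actin-nucleating WAVE and Arp complexes and related effectors the median was -0.27. Abi1, a WAVE subunit, had 10 and 7 peaks (-0.85), and Pak1 and Pak3, kinases activated by Rac and Cdc42, had 13 and 9 (-0.82) and 1 and 4 (0.88). Without centring the list medians were 0.31, 0.21, 0.03 and 0.12 in the order given, so they lie below 0 only relative to the median gene.

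**Figure D4:**
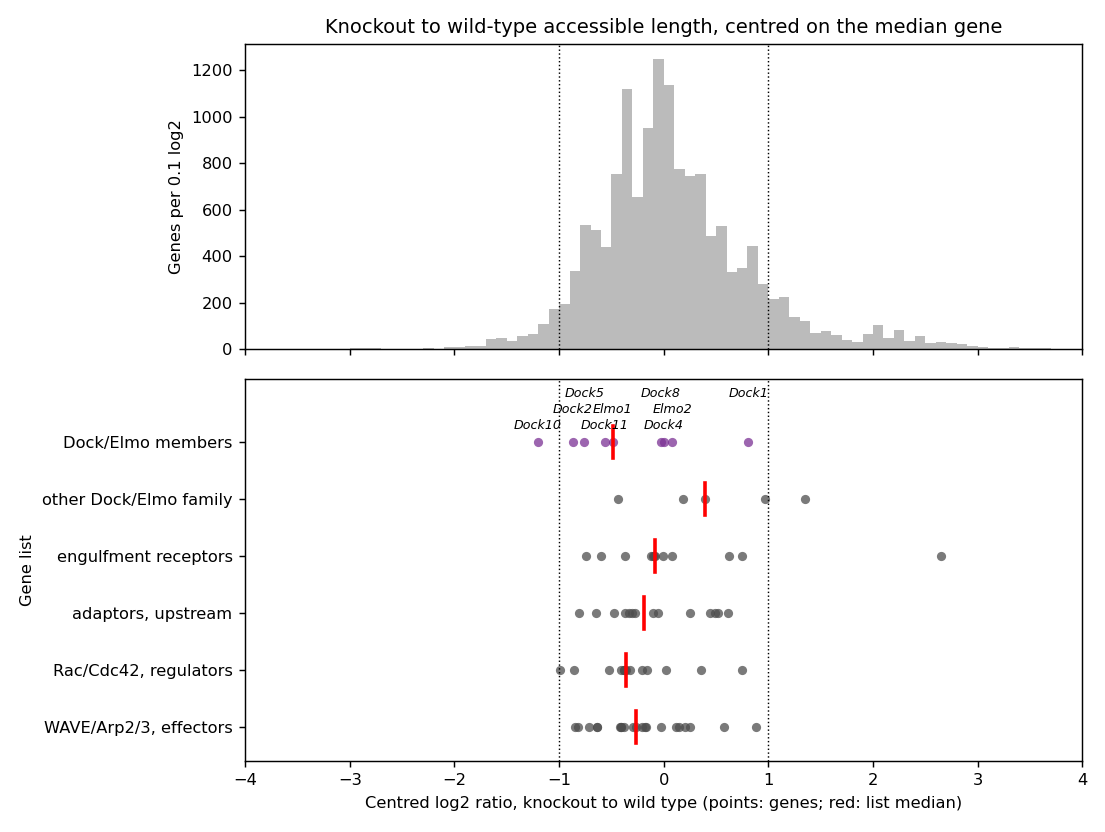
Top, centred log2 ratio in length, knockout over wild type, of all 14692 measured genes; bottom, each measured gene of the 6 lists (points) with the list median (red). Dotted lines mark 1 and -1. Of the 9 Dock and Elmo genes Dock10 lies past -1, and Adgrb1 and Elmod3 are the listed genes past 1.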

How the data were processed

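Per the file headers, the authors ran cellranger-arc 2.0.2 on mm10, once for each library. Peak lists hold positions without heights, and the deposited annotation assigns peaks to genes. Peak-calling settings are not stated in the labels or headers. Deposited per-barcode tables hold raw counts of fragments, used for depth only. Only peaks on the autosomes, X and Y entered. Peaks overlapping by at least 1 bp were called shared, and a pseudocount of 1 kb was used for length ratios. Gene spans and promoters are those of RefSeq on GRCm38.p6. The strand of Dock5 was taken from the deposited distances. Exons and introns were not used here, since no genome annotation of that detail was at hand.

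Members and lists were chosen with earlier results of these data known. Named genes are the 9 members, the other family genes (1 of them is not reported here), and in each of the 4 pathway lists the genes past the size rule, filled up to 3 by absolute ratio. The 3 genes nearest in both lengths are named for the highest and the lowest member. Python 3.11.15, numpy 2.4.6, pandas 2.3.3, scipy 1.17.1, matplotlib 3.10.9 and bedtools 2.31.1 were used. The overlap and ratio code was tested on simulated data. Peak numbers depend on depth, which was not equalised.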

Additional observations from a re-analysis of the deposited data

How the results depend on the processing

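With 1 library per genotype nothing separates genotype from preparation, and no replicate could be left out. No paired analysis was possible because each genotype has 1 ATAC library. Over 10 alternatives 87 of 90 single-gene ratios stayed within 1.5 times of their value and 3 moved further, those of Dock1, Dock4 and Elmo2 given in the text. The changed length minimums and the lack of centring shift every ratio alike, here by less than 1.5 times. They could therefore move none, and part of the 87 was fixed in advance. Only Dock10 had a call that could be reversed, and its ratio stayed negative in all 10. Ratios near 0 took either sign. Dock4 (0.00) was negative in 6 of 10, Dock8 (-0.03) in 7 and Elmo2 (0.08) in 1. Dock10 was the 1 gene lower in 9 of 10 alternatives. Without centring 0 of the 9 genes were lower and 1 was higher, Dock1, while over all genes the higher share of those past the rule went from 71.6% to 93.6%. It was 60.6% with the knockout list cut to the wild-type number of peaks, widest first. Under that cut the 9 genes had 107 knockout peaks, and 31.5% of their wild-type peaks were shared. Counting peaks within 500 bp as shared gave 58.1% of knockout peaks. Higher genes among the other family numbered 2 with a pseudocount of 0.25 kb, without centring and over distal peaks only, and 0 under the cut. Higher genes in the pathway lists numbered 2 with that pseudocount, 3 with no length minimum, 0 with a minimum of 4 kb, 6 without centring, 2 under the cut and 0 for peaks over RefSeq gene bodies. Lower pathway genes numbered 3 with that pseudocount, 1 over distal peaks only, 1 for peaks of no other gene, 1 for peaks of at least 500 bp, 5 under the cut and 2 over RefSeq bodies. For each of these the cause was not tested. Over all genes, 1514 were higher and 600 lower. These counts were 2132 and 1043 with the smaller pseudocount, 2872 and 1334 with no length minimum, 635 and 256 with a minimum of 4 kb, 2884 and 197 without centring, and 753 and 330 over RefSeq bodies. The planned motif counts in peaks and their windows were not run, since peak sequences were not read here. The comparison with genes of at least 7 kb was added after seeing the data.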

Other observations

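Dock1 and Dock2 each share peaks with a neighbour of the Insyn2 pair, which lies inside the respective gene. Insyn2a (chromosome 7, 134881908 to 134938430) lies within Dock1 and was assigned 0 wild-type and 9 knockout peaks, a centred ratio of 2.75, with no promoter peak in either library. Without a wild-type peak, Insyn2a too reached the length minimum through the knockout library alone. Of the knockout peaks assigned to Dock1, 1 was centred in the Insyn2a span. Insyn2b (chromosome 11, 34314822 to 34422642) lies within Dock2 and was assigned 3 wild-type peaks and 1 knockout peak. Each neighbour differed in the direction of its host, and the same peaks were counted for both. Beyond Dock8, Kank1 had 19 and 30 peaks and a centred ratio of 0.23, and its promoter peak was in the knockout list alone.

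The genes whose lengths in both libraries were nearest to those of Dock1, by Euclidean distance in log2(kb + 1) over the 2 libraries, were Epas1 (12 and 29 peaks), Rbpms (12 and 31) and Slc22a23 (12 and 29). Nearest to Dock10 were Sh3kbp1 (28 and 13), Tbc1d5 (27 and 18) and Cask (32 and 18). The distances were 0.05 to 0.06 for Dock1 and 0.21 to 0.24 for Dock10, with predicted and clone-named genes left out.

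The 12 promoter windows of 300 bases were searched on both strands for 8 motifs. The AP-1 letters TGANTCA were in 1 of 12 (Dock4) and in 7.81% of all 32851 windows. The PU.1-type ETS letters GAGGAAGT were in 1 (Elmo1, 38 to 45 bases after the start) and in 3.20%. The C/EBP letters TTGCNNAA were in 1 (Elmo2) and in 10.8%, the FOX letters TGTTTAC in 1 (Dock11) and in 3.65%, and the SP/KLF letters GGGGCGGGG in 1 (Dock4) and in 11.4%. The RUNX letters TGTGGTT (5.27%), the HNF4 letters CAAAGTCCA (0.475%) and the HNF1 motif (0.140%) were in 0 of 12. No match overlapped another. A match is a description of letters only.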
